A study of Mus musculus with 10 samples.

Results

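The genes described here are 10 members of the extracellular protease system of the brain: the 4 tissue inhibitors of metalloproteinases Timp1, Timp2, Timp3 and Timp4, the 5 matrix metalloproteinases Mmp2, Mmp3, Mmp9, Mmp12 and Mmp14, and the related secreted protease Adamts1. They were chosen by symbol, and all 10 were found among the 18193 genes measured. Each gene was read through 1 probe set of an Affymetrix array, the one with the highest mean over the arrays among those that the platform annotation assigns to that gene alone; together the 10 genes had 23 such probe sets. The study compared male mice labelled Hsp72Tg, which overexpress the stress protein Hsp72, with wild-type (WT) mice. Brains were taken 24 h after surgery, which was either occlusion of the middle cerebral artery (MCAO), a stroke model that blocks the vessel supplying much of a hemisphere, or a sham operation. RNA came from the whole hemisphere on the operated side. The groups were Hsp72Tg MCAO (3 arrays), WT MCAO (3), Hsp72Tg sham (2) and WT sham (2), and the design text speaks of the samples as mice. The sources used here do not give strain, age, or the promoter and species of the transgene.

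Matrix metalloproteinases are zinc-dependent enzymes that are made as inactive precursors and, once cleaved, digest collagens, laminins and proteoglycans of the extracellular matrix. TIMP proteins bind and block their active sites, so the balance of both classes sets how fast matrix is degraded. In the brain after stroke these enzymes are known above all for opening the basement membrane and the tight junctions of the blood-brain barrier, and later for remodelling vessels and scar. Expression values below are RMA values on the log2 scale, on which a difference of 1 is a doubling of the signal. Levels of different genes are not set against each other, since probe sets differ in brightness for reasons unrelated to RNA amount.

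Facts of the whole series that bear on these genes were few. Array medians lay between 6.67 and 6.73 and array lower quartiles between 5.14 and 5.21, and values below the lower quartile are called dim here. The array Hsp72Tg MCAO 1 stood apart: on the first principal component over all genes it lay at -12.87, the other 5 MCAO arrays between 11.70 and 32.30, and the 4 sham arrays between -23.71 and -20.66. Changes of the 10 genes that use it are therefore also given without it. This array was set apart because it lay nearest to the sham arrays, so leaving it out favours larger MCAO changes with smaller SE. Adjusted p of fits without it describe the arrays kept and give no independent support. WT sham 1 alone carried a cerebellar signal, with a mean over 7 cerebellum markers 1.53 above the mean of the sham arrays. Markers of brain cells were bright in all groups: the summed log2 level of 9 neuron markers ran from 109 to 112 over the 10 arrays, and that of 9 astrocyte markers from 99.2 to 103. Hspa1b, a gene for Hsp72, read 9.12 and 9.16 in the sham arrays labelled Hsp72Tg, against 9.38 and 9.48 in WT sham. For Hspa1a the values were 8.28 and 8.53 in Hsp72Tg sham, against 8.54 and 8.45 in WT sham, so these probe sets do not check the genotype labels.

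After MCAO the inhibitor Timp1, the protease Adamts1 and the membrane-bound protease Mmp14 rose over both genotypes, by 7.60-fold, 6.68-fold and 1.78-fold. Mmp3 and Mmp12 had changes of 2.41 and 0.81 on the log2 scale that did not pass, while Timp2, Timp3, Timp4, Mmp2 and Mmp9 had changes between -0.02 and 0.29. Thus 3 of the 10 genes passed an adjusted p under 0.05 in limma as higher and 0 as lower, where 1.06% of all 18193 genes passed as higher and 0.407% as lower. At an unadjusted p under 0.05 there were 5 of the 10, adding Mmp3 and Mmp12, against 19.1% of all genes. The median change of the 10 genes was 0.55, against -0.03 over all genes. The same 3 genes were those in which all 6 MCAO arrays lay above all 4 sham arrays, a pattern seen as higher in 3.19% of all genes. Without Hsp72Tg MCAO 1 the same 3 genes and Mmp3, Mmp9 and Mmp12 passed, 6 of the 10 as higher, where 12.4% of all genes passed and 6.02% as higher. Timp1 was then 3.28 (SE 0.16), Adamts1 3.09 (SE 0.18) and Mmp14 0.93 (SE 0.09), with limma adjusted p from 3.18e-06 to 0.000169. The members were chosen with earlier results of these arrays known, so these counts describe them and give no independent support.

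**Figure D1:**
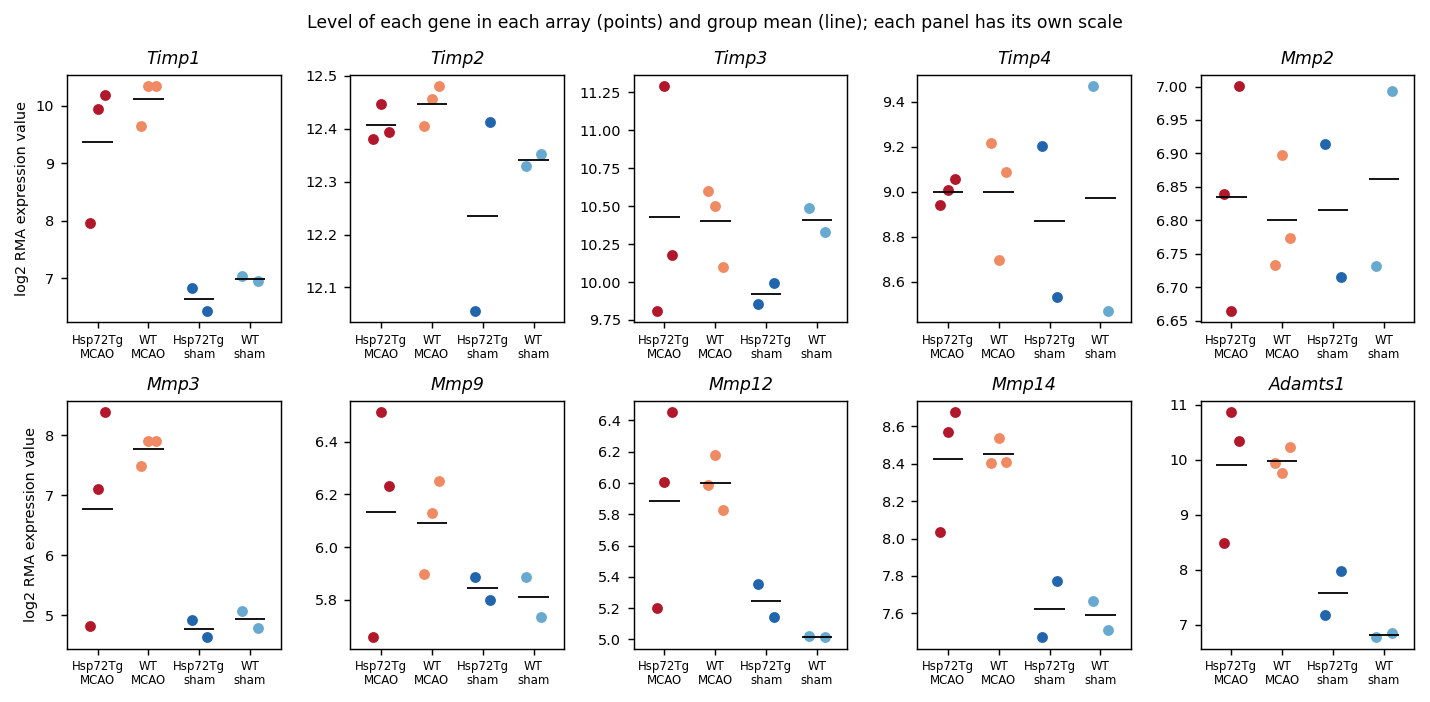
Log2 RMA expression values of the 10 genes (y axis, a scale of its own in each panel) in the groups Hsp72Tg MCAO, WT MCAO, Hsp72Tg sham and WT sham (x axis). Points are arrays and lines are group means. In Timp1, Mmp14 and Adamts1 every MCAO array lies above every sham array, and the lowest MCAO point in these panels is Hsp72Tg MCAO 1.

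Among the inhibitors, Timp1 (chrX:20870166-20874737, GRCm38.p6) stood out. TIMP1 is a secreted, inducible inhibitor of most matrix metalloproteinases and is made by reactive astrocytes, among other cells. It read 7.96, 9.95 and 10.19 in Hsp72Tg MCAO, 9.65, 10.35 and 10.33 in WT MCAO, 6.83 and 6.43 in Hsp72Tg sham, and 7.04 and 6.94 in WT sham. All MCAO arrays were above all sham arrays, with Hsp72Tg MCAO 1 between the other 5 MCAO arrays and the sham arrays. Over both genotypes Timp1 rose by 2.93 (SE 0.39, 95% confidence interval 2.06 to 3.79, limma adjusted p = 0.014) and ranked 28 by p among all genes. The call was lost without WT sham 1, WT sham 2, Hsp72Tg sham 1, Hsp72Tg sham 2 or WT MCAO 3, with adjusted p up to 0.0865, while the change stayed between 2.72 and 3.28 in the 10 fits that each left out 1 array. Fewer cells of a type and less RNA per cell cannot be told apart in such bulk tissue, nor can more of either.

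None of the other 3 inhibitors passed. Timp2, which both inhibits Mmp2 and takes part in its activation at the cell surface, read 12.38, 12.45 and 12.39 in Hsp72Tg MCAO, 12.40, 12.46 and 12.48 in WT MCAO, 12.06 and 12.41 in Hsp72Tg sham, and 12.33 and 12.35 in WT sham. The array Hsp72Tg sham 1 was the lowest and the others lay within a narrow range. Its change was 0.14 (SE 0.08, adjusted p = 0.361), and its 6 probe sets gave changes of -0.08 to 0.14. Timp3, a matrix-bound inhibitor that also blocks ADAM and ADAMTS proteases, read 9.81, 11.29 and 10.18 in Hsp72Tg MCAO, 10.60, 10.50 and 10.10 in WT MCAO, 9.85 and 9.99 in Hsp72Tg sham, and 10.49 and 10.33 in WT sham. The highest and the lowest value were both in Hsp72Tg MCAO, and the 6 MCAO arrays overlapped the 4 sham arrays. Its change was 0.25 (SE 0.25, adjusted p = 0.629) and fell to 0.03 without Hsp72Tg MCAO 2. Timp4, an inhibitor with a restricted tissue range that includes the brain, read 8.94, 9.01 and 9.05 in Hsp72Tg MCAO, 9.22, 8.70 and 9.09 in WT MCAO, 9.20 and 8.53 in Hsp72Tg sham, and 9.47 and 8.47 in WT sham. The sham pairs differed more within a genotype than any groups differed in their means, and its change was 0.08 (SE 0.20, adjusted p = 0.865). The 95% confidence intervals were -0.03 to 0.31 for Timp2, -0.31 to 0.80 for Timp3 and -0.37 to 0.53 for Timp4, so a change of the size seen in Timp1 lies outside each of them. Without Hsp72Tg MCAO 1 the changes were 0.15 (SE 0.08) for Timp2, 0.40 (SE 0.20) for Timp3 and 0.096 (SE 0.21) for Timp4, with limma adjusted p from 0.244 to 0.827.

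Adamts1 (chr16:85793827-85803113) encodes a secreted protease that cleaves the proteoglycans aggrecan and versican and restrains the growth of vessels. It read 8.49, 10.86 and 10.34 in Hsp72Tg MCAO, 9.93, 9.76 and 10.23 in WT MCAO, 7.19 and 7.98 in Hsp72Tg sham, and 6.77 and 6.84 in WT sham. The groups did not overlap between MCAO and sham, and Hsp72Tg MCAO 1 was again nearest to the sham arrays. Over both genotypes Adamts1 rose by 2.74 (SE 0.39, interval 1.86 to 3.62, limma adjusted p = 0.0202). It passed in 4 of the 10 fits that each left out 1 array (without Hsp72Tg sham 2 or any 1 of the Hsp72Tg MCAO arrays), with changes of 2.498 to 3.09 and adjusted p up to 0.115.

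Mmp14 (chr14:54431598-54442456), a metalloproteinase anchored in the cell membrane that digests collagen and activates the precursor of Mmp2, read 8.03, 8.57 and 8.68 in Hsp72Tg MCAO, 8.41, 8.54 and 8.41 in WT MCAO, 7.47 and 7.77 in Hsp72Tg sham, and 7.67 and 7.51 in WT sham. Again the MCAO arrays were all higher. The rise over both genotypes was 0.83 (SE 0.13, interval 0.55 to 1.12, limma adjusted p = 0.0251). Its 3 probe sets did not agree: a second gave 0.71 (SE 0.13) and the third, the dimmest, 0.04 (SE 0.08), and with the mean over the 3 probe sets the change was 0.53 (adjusted p = 0.0501). Mmp14 too passed in 4 of the 10 fits without 1 array, the same 4 as for Adamts1, with changes of 0.76 to 0.93. Its substrate Mmp2, a gelatinase made in normal brain, read 6.66 to 7.001 over the MCAO arrays and 6.72 to 6.99 over the sham arrays. These ranges coincide almost completely, and the change was -0.02 (SE 0.09, interval -0.23 to 0.18, adjusted p = 0.928), and -0.02 (SE 0.10) without Hsp72Tg MCAO 1.

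In Mmp3 and Mmp12, Hsp72Tg MCAO 1 lay among the sham arrays while the other 5 MCAO arrays were higher. Mmp3 (chr9:7445822-7455975) encodes a stromelysin that digests many matrix proteins and activates other metalloproteinase precursors, that of Mmp9 among them. It read 4.82, 7.11 and 8.39 in Hsp72Tg MCAO, 7.49, 7.90 and 7.91 in WT MCAO, 4.92 and 4.64 in Hsp72Tg sham, and 5.08 and 4.799 in WT sham. Of these, 5 MCAO arrays stood 2.25 to 3.53 above the sham mean, while Hsp72Tg MCAO 1 stood at -0.04 from it. The change over both genotypes was 2.41 (SE 0.54, interval 1.20 to 3.62) and did not pass (limma adjusted p = 0.0618). It was 2.90 without Hsp72Tg MCAO 1 (SE 0.23, limma adjusted p = 5.94e-05). All 4 sham arrays and Hsp72Tg MCAO 1 were dim for Mmp3, so the size of its change is uncertain. Mmp12 (chr9:7344397-7360461), the elastase of macrophages, read 5.20, 6.01 and 6.45 in Hsp72Tg MCAO, 5.99, 6.18 and 5.83 in WT MCAO, 5.35 and 5.14 in Hsp72Tg sham, and 5.02 and 5.01 in WT sham. Here Hsp72Tg MCAO 1 fell within the sham range, and both WT sham arrays were dim. The change was 0.81 (SE 0.20, limma adjusted p = 0.0803), and 0.98 (SE 0.11, limma adjusted p = 0.000627) without that array. For both genes the call thus changed when this 1 array was left out. Among the 9 alternatives other than leaving out 1 array, Mmp3 passed in 3 and Mmp12 in 2.

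Mmp9 (chr2:164940326-164955850), the gelatinase most often linked to barrier opening and stored in the granules of neutrophils, read 5.66, 6.51 and 6.23 in Hsp72Tg MCAO, 5.90, 6.13 and 6.25 in WT MCAO, 5.89 and 5.80 in Hsp72Tg sham, and 5.89 and 5.74 in WT sham. The array Hsp72Tg MCAO 1 was the lowest of all 10 and Hsp72Tg MCAO 2 the highest. The change was 0.29 (SE 0.15, interval -0.05 to 0.62, limma adjusted p = 0.334), and its other probe set gave 0.26 (SE 0.14). The change was 0.41 (SE 0.10) without Hsp72Tg MCAO 1 and passed (limma adjusted p = 0.0263). Neutrophil markers varied in the same arrays: the mean of the 10 measured markers relative to the sham mean was -0.17, 1.26 and 0.70 in Hsp72Tg MCAO, 0.40, 0.72 and 0.68 in WT MCAO, 0.05 and -0.08 in Hsp72Tg sham, and 0.36 and -0.33 in WT sham. Their summed log2 level ran from 59.0 to 73.3 in Hsp72Tg MCAO, 64.7 to 67.9 in WT MCAO, 59.9 to 61.2 in Hsp72Tg sham and 57.4 to 64.3 in WT sham. Of the 10 markers 9 had a positive change and 0 passed, Mmp8 included, led by S100a9 (2.49, SE 0.78) and S100a8 (2.38, SE 0.78), while the granule gene Mpo had 0.04 (SE 0.10). RMA values have no 0 level, so none of these markers can be called absent, and their part in the value of Mmp9 was not tested.

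The regions before the genes' starts are shown for Timp1, Adamts1 and Mmp14, which passed, and for Mmp3, Mmp12 and Timp2, which did not. Those of Timp3, Timp4 and the first Mmp12 start are not printed, so the printed stretches are a selection. RefSeq promoter windows of GRCm38.p6, 250 bases before to 50 after the annotated start, were available for 8 of the 10 genes (9 windows, 2 of them for Mmp12), and Mmp2 and Mmp9 are named only. The last 100 bases before the start are given 5′ to 3′ on the gene's strand. Capitals mark the AP-1 motif TGANTCA, bound by Fos and Jun proteins, or its variant TGAGTAA, on either strand. For Timp1 a short stretch after the start is added, which holds the variant.
Timp1, before the start, chrX:20870066-20870165, plus strand: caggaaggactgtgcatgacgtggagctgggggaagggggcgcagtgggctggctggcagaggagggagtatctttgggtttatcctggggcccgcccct
Timp1, after the start, chrX:20870191-20870215, plus strand: aTGAGTAAtgcgtccaggaagcctg
Adamts1, before the start, chr16:85803114-85803213, minus strand: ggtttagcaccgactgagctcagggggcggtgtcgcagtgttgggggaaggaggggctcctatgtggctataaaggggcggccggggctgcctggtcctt
Mmp14, before the start, chr14:54431498-54431597, plus strand: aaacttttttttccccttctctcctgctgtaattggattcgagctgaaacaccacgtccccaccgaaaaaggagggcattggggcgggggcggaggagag
Mmp3, before the start, chr9:7445722-7445821, plus strand: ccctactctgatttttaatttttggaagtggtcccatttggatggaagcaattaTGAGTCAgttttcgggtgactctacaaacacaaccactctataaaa
Mmp12, second start, chr9:7347274-7347373, plus strand: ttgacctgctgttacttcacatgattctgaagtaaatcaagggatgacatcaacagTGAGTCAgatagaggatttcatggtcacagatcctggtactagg
Timp2, before the start, chr11:118355412-118355511, minus strand: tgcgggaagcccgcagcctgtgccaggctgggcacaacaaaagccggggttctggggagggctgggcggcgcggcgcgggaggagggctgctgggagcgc

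The motif TGANTCA was found in 2 of the 9 windows, at -46 to -40 of Mmp3 and at -44 to -38 of the second Mmp12 start, against 7.81% of all 32851 windows in the table. The variant TGAGTAA was found in 1, at 27 to 33 of Timp1, against 2.68% of all windows. The stretch after the start was set out for Timp1 and this variant alone, so the match is a description and gives no independent support. No window held both forms. The Ets motif AGGAAG follows the Timp1 match at 41 to 46. AGGAAG, searched on both strands, was in 6 of the 9 windows and in 35.4% of all. The STAT motif TTCNNNGAA was in 0 of the 9 and in 8.30% of all. The windows of Adamts1 and Mmp14, whose RNA rose, and those of Timp2, Timp3 and Timp4 held neither AP-1 form. Nor did the window of the first Mmp12 start, at chr9:7344397, which is not printed above. This says only that these letters are not in these windows. A list of 18 genes held signals and factors tied to the induction of Timp1 or Mmp genes. In it the AP-1 subunit Fosl1 rose by 1.65 (SE 0.34, limma adjusted p = 0.0493). Jun at 1.04 (SE 0.26) and Fos at 1.19 (SE 0.50) did not pass. Neither did Fosl2 at 0.54 (SE 0.19), Junb at 0.46 (SE 0.15) or Fosb at 0.27 (SE 0.44). A link between these genes and the motif matches was not tested.

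In mice labelled Hsp72Tg alone, with 3 MCAO against 2 sham arrays, 0 of the 10 genes passed in limma and 4 had an unadjusted p under 0.05, against 0.022% and 12% of all genes. Timp1 had a change of 2.73 (SE 0.55), Adamts1 of 2.31 (SE 0.56), Mmp3 of 2.00 (SE 0.76), Mmp14 of 0.81 (SE 0.18) and Mmp12 of 0.64 (SE 0.29), with limma adjusted p between 0.312 and 0.417. MCAO and sham arrays did not overlap in Timp1, Adamts1 and Mmp14, against 9.05% of all genes with MCAO higher. The other 5 genes had changes of 0.02 to 0.50. Without Hsp72Tg MCAO 1 these values became 3.44 (SE 0.23) for Timp1, 3.02 (SE 0.26) for Adamts1, 2.97 (SE 0.34) for Mmp3, 1.003 (SE 0.13) for Mmp14 and 0.98 (SE 0.17) for Mmp12. All 5 then passed in limma, with adjusted p from 7.51e-05 to 0.00942, where 6.49% of all genes passed. The other 5 genes then had changes of 0.02 to 0.81, the highest in Timp3.

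In WT mice 0 of the 10 genes passed in limma with the spread shared by all 4 groups and 5 had an unadjusted p under 0.05, against 0.055% and 10.2% of all genes. The change was 3.16 (SE 0.56) for Adamts1, 3.12 (SE 0.55) for Timp1, 2.83 (SE 0.76) for Mmp3, 0.98 (SE 0.29) for Mmp12 and 0.86 (SE 0.18) for Mmp14, with limma adjusted p between 0.0964 and 0.262. All 3 MCAO arrays lay above both sham arrays in these 5 genes and in Timp2 and Mmp9, against 16.4% of all genes. Timp3, Timp4 and Mmp2 overlapped, and the other 5 genes changed by -0.06 to 0.28. When only the 5 WT arrays were fitted, the same 5 genes passed, with SE from 0.09 to 0.21 and limma adjusted p from 9.01e-05 to 0.00414, where 5.25% of all genes passed. With all 10 arrays the SE of these 5 genes ran from 0.18 to 0.76.

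**Figure D2:**
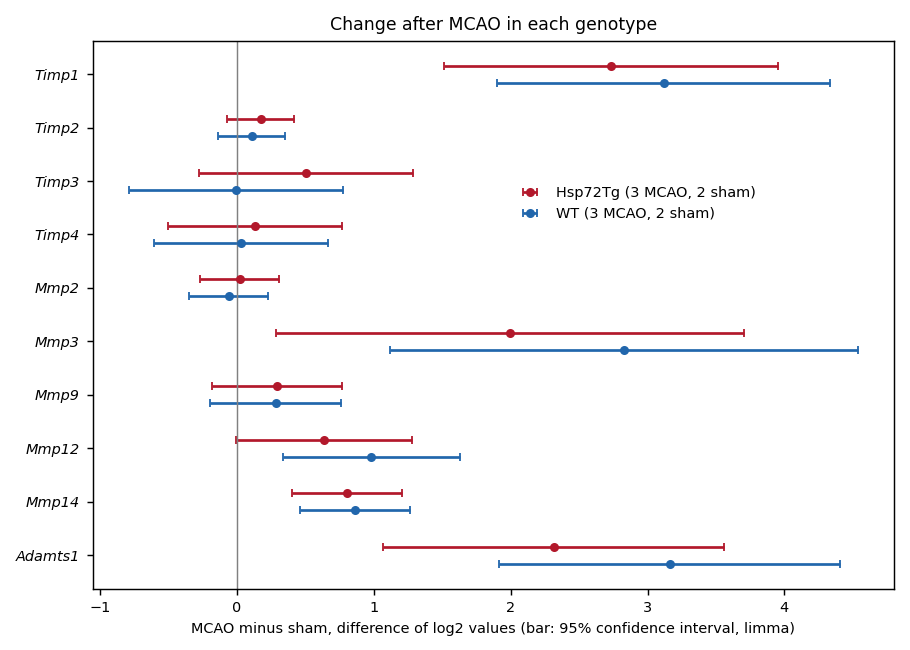
Change after MCAO (x axis, MCAO minus sham in log2 values) of each gene (y axis) in Hsp72Tg (upper, red) and WT (lower, blue), with 95% confidence intervals from limma over all 10 arrays. Intervals of Timp1, Mmp3, Mmp14 and Adamts1 exclude 0 in both genotypes before adjustment, and the intervals of both genotypes overlap in every gene.

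The question of the study, whether Hsp72 alters the response, was addressed by the difference of the MCAO changes and by comparing the genotypes directly. The difference, Hsp72Tg minus WT, was -0.38 (SE 0.77, interval -2.11 to 1.34) for Timp1, -0.83 (SE 1.08, interval -3.25 to 1.58) for Mmp3 and -0.85 (SE 0.79, interval -2.61 to 0.91) for Adamts1. It lay between -0.34 and 0.51 for the other 7 genes, with 0 of 10 passing in limma (adjusted p = 1 for each), against 0% of all genes, and 0 having an unadjusted p under 0.05, against 1.75%. Without Hsp72Tg MCAO 1 it was 0.32 (SE 0.31) for Timp1, 0.14 (SE 0.46) for Mmp3 and -0.14 (SE 0.35) for Adamts1, so for the first 2 of these the sign turned with that array. The other 7 genes then had differences of 0.00027 to 0.82, the highest again in Timp3. With all 10 arrays the Timp3 difference was 0.51 (SE 0.49) in the probe set used. Its other probe sets gave 0.0065, 0.16 and 0.43. The intervals of the differences are wide and do not show that the genotypes respond alike.

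After MCAO, Hsp72Tg minus WT, Timp1 had a difference of -0.75 (SE 0.49, interval -1.84 to 0.34) and Mmp3 had a difference of -0.997 (SE 0.68, interval -2.53 to 0.53). Without Hsp72Tg MCAO 1 the differences were -0.04 for Timp1 and -0.02 for Mmp3. Adamts1 differed by -0.08 (SE 0.50, interval -1.19 to 1.04), and by 0.63 without that array. The other 7 genes differed by -0.11 to 0.04, and by -0.03 to 0.34 without that array, when Timp3 was at 0.34, Mmp9 at 0.28, Mmp12 at 0.23 and Mmp14 at 0.17. The signs of Mmp12 and Mmp14 turned with it. With all arrays kept, Timp3 differed by 0.03 in the probe set used and by 0.14, 0.29 and 0.60 in its other probe sets. In 0 of the 10 genes did the Hsp72Tg MCAO and WT MCAO arrays separate, against 7.44% of all genes, and 0 passed in limma, against 0%, or had an unadjusted p under 0.05, against 2.68%.

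After sham surgery 0 of the 10 genes differed in limma (adjusted p = 1 for each), against 0% of all genes, and 0 had an unadjusted p under 0.05, against 1.56%. Both Hsp72Tg sham arrays lay below both WT sham arrays in Timp1 (difference -0.36, SE 0.60) and in Timp3, against 14.2% of all genes. They lay above in Adamts1 (difference 0.77, SE 0.61) and in Mmp12, against 12.8% of all genes. With 2 arrays a group these separations are near that background. The Timp3 difference after sham surgery was -0.48 (SE 0.38) in the probe set used. Its other probe sets gave 0.134, 0.125 and 0.16, in the opposite direction.

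**Figure D3:**
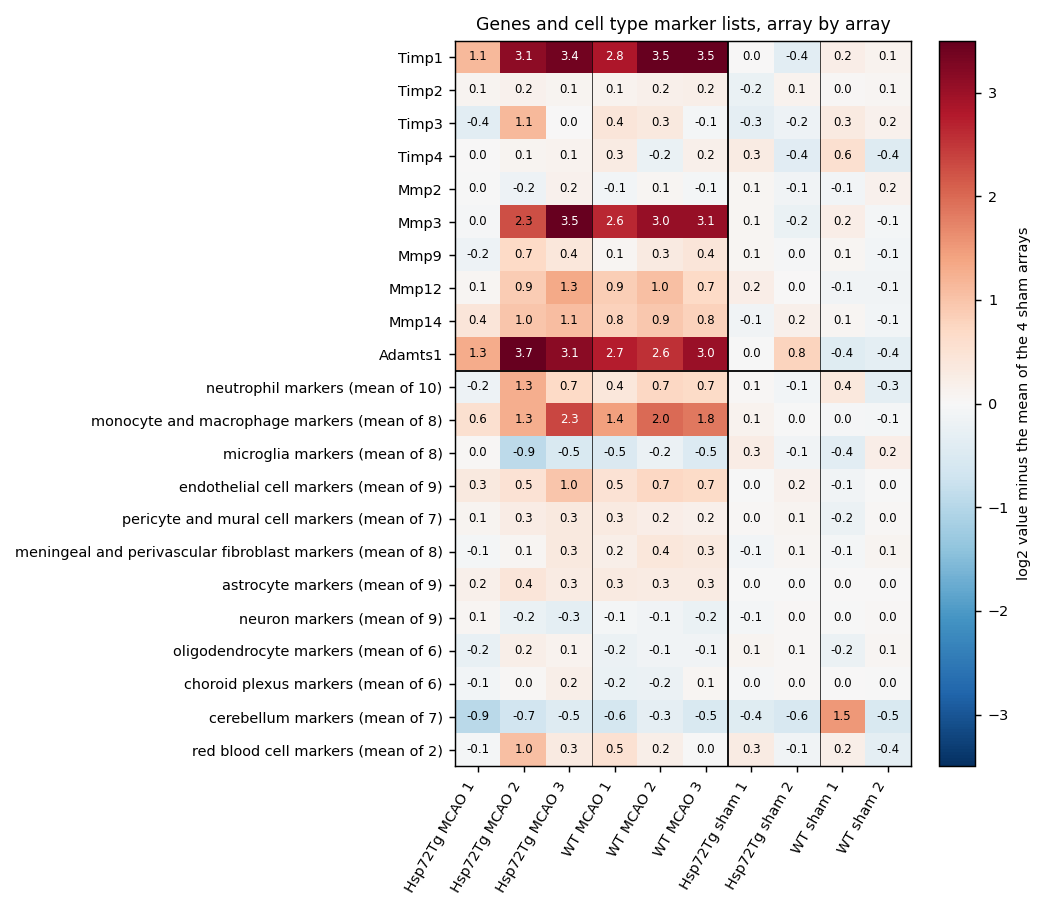
Log2 value minus the mean of the 4 sham arrays (colour and number) for the 10 genes and, below the line, the mean over the cell type marker lists (rows) in each array (columns). Hsp72Tg MCAO 1 shows 1.1 for Timp1 and 1.3 for Adamts1 but 0.1 or less for Mmp3, Mmp9 and Mmp12, and the monocyte and macrophage markers read 0.6 there.

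Array by array, Hsp72Tg MCAO 1 was the lowest of the 6 MCAO arrays in 8 of the 10 genes, where it was the lowest in 20.1% of all genes. The 20.1% covers genes that rose and genes that did not. This array had been set apart for lying nearest to the sham arrays, so it would tend to be lowest in any rising gene. The 8 are thus no independent finding about these genes. Relative to the sham mean Hsp72Tg MCAO 1 stood at 1.15 in Timp1, 1.29 in Adamts1 and 0.43 in Mmp14. The other 5 MCAO arrays stood at 2.84 to 3.53, 2.56 to 3.67 and 0.80 to 1.07. It stood at -0.04 in Mmp3, 0.07 in Mmp12 and -0.17 in Mmp9, all within or below the sham range. Timp1, Adamts1 and Mmp14 were thus the 3 of the 10 genes in which this array lay above every sham array. In Timp3 it stood at -0.36, below the sham range. Cell type markers moved in these arrays too. The mean of 8 monocyte and macrophage markers was 0.56, 1.27 and 2.33 above the sham mean in Hsp72Tg MCAO and 1.44, 1.97 and 1.85 in WT MCAO, with sham arrays from -0.06 to 0.12. Their summed log2 level ran from 57.6 to 71.8 in Hsp72Tg MCAO and 64.6 to 68.9 in WT MCAO. It ran from 53.0 to 54.1 in Hsp72Tg sham and was 52.7 in both WT sham arrays. Of the 8 markers 3 rose: Lgals3, Cd14 and Cd68. Among all genes 1.06% rose, which is the background for the other marker lists too. All 8 had a positive change, the smallest in the monocyte receptor gene Ccr2 (0.12, SE 0.07), and Lyz2 at 0.76 (SE 0.35) did not pass. The mean of 9 endothelial markers was 0.33, 0.49 and 0.97 in Hsp72Tg MCAO and 0.50, 0.71 and 0.66 in WT MCAO, and 2 of the 9 rose, Pecam1 by 1.003 (SE 0.18) and Cldn5 by 0.65 (SE 0.12). The mean of 9 astrocyte markers was 0.17, 0.41 and 0.29 in Hsp72Tg MCAO and 0.30, 0.29 and 0.28 in WT MCAO, with sham arrays from -0.02 to 0.02. Of these 1 rose, the filament gene Gfap, by 1.60 (SE 0.19, limma adjusted p = 0.0113). Their summed log2 level ran from 101 to 103 in Hsp72Tg MCAO and was 102 in all WT MCAO arrays, against 99.2 to 99.3 in Hsp72Tg sham and 99.4 to 99.6 in WT sham. The mean of 8 microglia markers was 0.05, -0.90 and -0.54 in Hsp72Tg MCAO and -0.49, -0.21 and -0.48 in WT MCAO, overlapping the sham arrays at -0.37 to 0.25. Over both genotypes 0 of the 8 passed in limma, while 2 had an unadjusted p under 0.05, against 19.1% of all genes. These were P2ry12 at -1.67 (SE 0.37) and Gpr34 at -1.30 (SE 0.42), and 2 of the 8 had a positive change. The part of these cell types in the changes of Timp1, Adamts1, Mmp14, Mmp3 and Mmp12 was not tested. Nor was it tested whether the monocyte and macrophage markers rose in cells that entered the brain or in resident cells.

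**Figure D4:**
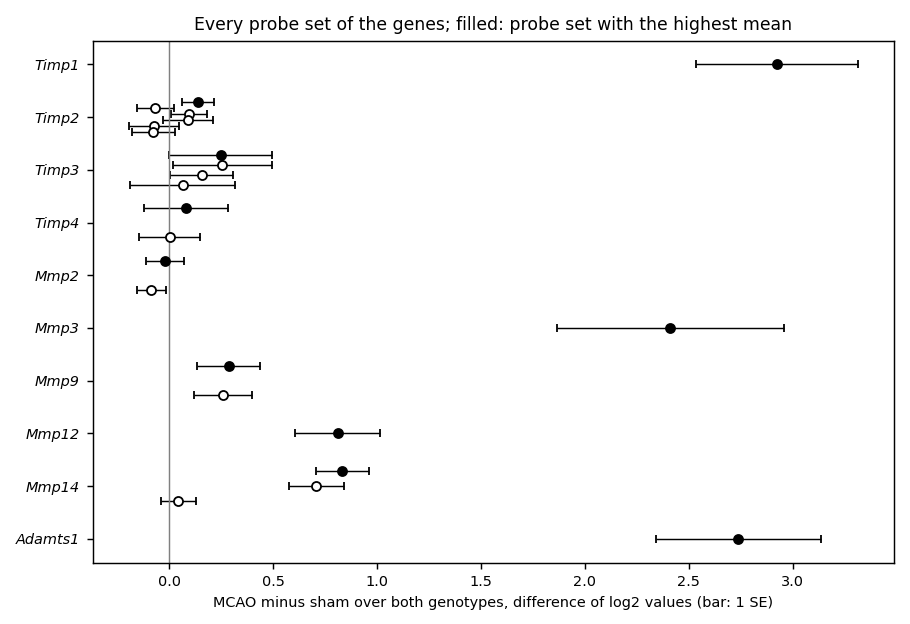
Change over both genotypes (x axis, MCAO minus sham in log2 values, bars 1 SE) for all 23 probe sets of the 10 genes (y axis). Filled points are the probe sets used. The 6 probe sets of Timp2, 4 of Timp3, 2 of Timp4 and 2 of Mmp2 all lie near 0, and 1 of the 3 probe sets of Mmp14 does too.

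Genes whose pattern over the 10 arrays was most like that of Timp1 were looked for by the mean absolute difference of values taken relative to each gene's own sham mean. The nearest were the tubulin gene Tubb6 (mean difference 0.24), the hyaluronan receptor gene Cd44 (0.30), the chemokine gene Ccl9 (0.32), the small GTPase gene Rhoj (0.36) and the transglutaminase gene Tgm1 (0.37). Each of these rose over both genotypes, Tubb6 by 2.72 (SE 0.43), Cd44 by 3.35 (SE 0.32), Ccl9 by 2.89 (SE 0.54), Rhoj by 2.82 (SE 0.43) and Tgm1 by 2.70 (SE 0.42). In Hsp72Tg MCAO 1 they read 0.89, 1.90, 0.67, 1.08 and 0.87 above their sham means. The 5 genes were chosen for this likeness, which is a description over arrays that share 2 surgeries.

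Other families of related proteases were counted next. Of 13 measured matrix metalloproteinases outside the 10 genes, 0 passed over both genotypes in limma, with a median change of -0.03, against -0.03 over all genes. The smallest p belonged to Mmp1b (0.14, SE 0.06) and Mmp8, a collagenase of neutrophils (0.59, SE 0.28, adjusted p = 0.285). Mmp8 read 4.70, 6.47 and 5.52 in Hsp72Tg MCAO and 4.84, 5.18 and 5.44 in WT MCAO, against 4.71 to 4.81 in the 4 sham arrays, so its highest array was that of Mmp9, Hsp72Tg MCAO 2. Of 14 other ADAMTS proteases 0 passed, with Adamts9 at 1.70 (SE 0.37, adjusted p = 0.0581) and Adamts3 at -0.56 (SE 0.15, adjusted p = 0.0904). Of 9 ADAM sheddases 0 passed, with Adam8, found on leukocytes, at 1.51 (SE 0.33, adjusted p = 0.0581) and Adam9 at 0.28 (SE 0.09). Adamts9 and Adam8 read 7.22 and 6.92 in Hsp72Tg MCAO 1 and at least 8.45 and 7.86 in the other MCAO arrays.

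Among 13 activators, other inhibitors and clearance genes, 2 rose: Lcn2, whose product binds and stabilises MMP9, by 4.38 (SE 0.84, limma adjusted p = 0.0428) and A2m, a broad protease trap, by 2.21 (SE 0.31, adjusted p = 0.0176). Of 20 substrates at the vessel and in the matrix 3 rose, the type IV collagen chains Col4a1 by 1.68 (SE 0.28) and Col4a2 by 1.21 (SE 0.21) and the tight junction gene Cldn5, also counted among the endothelial markers, by 0.65 (SE 0.12). Type IV collagen is a classic substrate of the gelatinases Mmp2 and Mmp9. Of the 18 genes listed as inducing signals and factors 6 rose. Largest were the receptor subunit Osmr at 3.06 (SE 0.22), Socs3 at 2.35 (SE 0.37), the cytokine Lif at 2.28 (SE 0.36) and Fosl1. Stat3 and Cebpb followed, named after their values were seen. Socs3 is a feedback inhibitor of such signals and not itself an inducer. The median changes of these 3 lists were 0.14, 0.07 and 0.92, against -0.03 for all genes, of which 1.06% rose. These lists were assembled with earlier results of these arrays known.

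**Figure D5:**
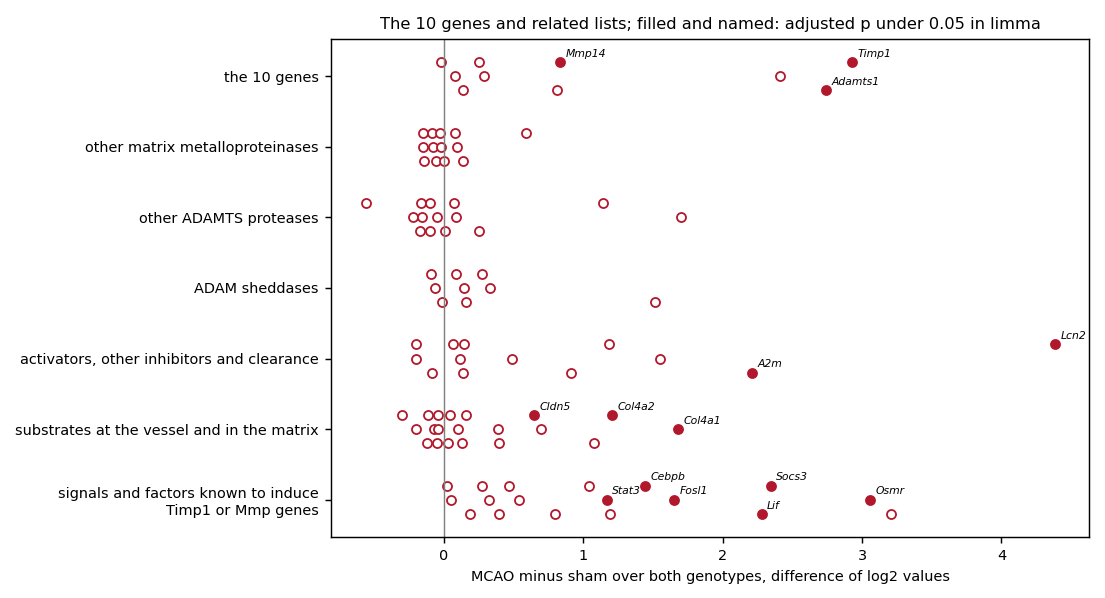
Change over both genotypes (x axis, MCAO minus sham in log2 values) of each gene (points) in the 10 genes and in 6 related lists (y axis). Filled, named points passed an adjusted p under 0.05 in limma. None of the open lists of other matrix metalloproteinases, other ADAMTS proteases and ADAM sheddases has a filled point. Of the 18 genes listed as inducing signals and factors 6 do, the feedback inhibitor Socs3 among them.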

How the data were processed

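The deposited values are log2 RMA values, 1 for each of 45101 probe sets on each of 10 arrays, made by the authors with RMA per the submitters' processing notes; the sources used here give no version or settings. This method subtracts background, makes array distributions alike and combines the probes of a set, and can compress low values. The scans themselves were not analysed here, and no probe set carried a background flag; the number of arrays limits the precision. After 64 control probe sets were left out, 34945 had 1 gene symbol, 932 several and 9160 none in the platform annotation, whose symbols can be old. Each of 18193 genes took its probe set with the highest mean.

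Tests used limma 3.58.1 in R 4.3.3 (lmFit, contrasts.fit and eBayes) with a mean per group over all 10 arrays, 6 residual and 3.72 prior degrees of freedom, two-sided, Benjamini-Hochberg adjusted over all genes with a threshold of 0.05. It was tested on simulated data. Deviations from group means gave r from -0.16 to 0.25 over 13 pairs of arrays that share a replicate number. Over the 24 other pairs r ran from -0.23 to 0.20. In a group of 2 arrays the deviations mirror each other, so this check cannot exclude pairing. The main fit did not use the numbers as pairs. Named genes were the 10 genes, up to 4 passing genes with the largest change per list (or the 2 with the smallest p) and the 5 genes most like Timp1. Members and lists were chosen with earlier results of these data known. Alternatives were a replicate block, only the groups compared, trend and robust eBayes, arrayWeights, quantile and median scaling, other uses of probe sets, a filter on dim probe sets, and leaving out arrays. Samples were grouped by their titles. If arrays of a group were not separate mice, p-values measure only the spread between samples. Gene positions and promoters came from RefSeq tables of GRCm38.p6, which name the same Entrez genes as the annotation for all 10.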

Additional observations from a re-analysis of the deposited data

How the results depend on the processing

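Over both genotypes 3 genes passed (Timp1, Mmp14 and Adamts1). The count was 2 to 4 under trend and robust eBayes, quantile normalization, median centring, the mean over probe sets, each probe set tested by itself and the filter on dim probe sets. It was 5 with arrayWeights and 5 without both Hsp72Tg MCAO 1 and WT sham 1, each adding Mmp3 and Mmp12, where 6.13% and 6.47% of all genes passed. The first of these fits gave Hsp72Tg MCAO 1 the lowest weight and the second left it out. Whether the replicate numbers pair samples is not known. With a replicate block the count was 0, where 0.104% of all genes passed, with limma adjusted p of 0.0758 for Timp1 and Adamts1. Without 1 array at a time it ran from 0 to 6. It was 0 without WT sham 1, WT sham 2, Hsp72Tg sham 1 or WT MCAO 3, 1 (Timp1) without WT MCAO 1 or WT MCAO 2, and 6 without Hsp72Tg MCAO 1, when Mmp9 passed too (0.41, SE 0.10, adjusted p = 0.0263) and 12.4% of all genes passed.

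In Hsp72Tg the count of 0 became 5 without both arrays, where 4.29% of all genes passed, and ran from 0 to 5 without 1 array. In WT the count of 0 became 5 with only the WT arrays (5.25% of all genes), 5 with arrayWeights (7.46%) and 4 without both arrays (0.813%), and ran from 0 to 5 without 1 array. The counts of 0 for the 3 comparisons between genotypes stayed 0 in all alternatives. The cause of these shifts was not tested; without Hsp72Tg MCAO 1 the SE of Timp1 over both genotypes was 0.16, against 0.39.

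Signs turned in several of the reported changes, more often between genotypes than for MCAO against sham. Mmp2 over both genotypes was 0.012 with arrayWeights and -0.0862 to 0.0445 without 1 array, and Timp4 was -0.17 to 0.33 without 1 array. Without both arrays the difference of the MCAO changes was 0.27 for Timp1 and 0.00278 for Mmp3; without 1 array it ran from -0.80 to 0.32 and from -1.64 to 0.14. Adamts1 after MCAO, Hsp72Tg minus WT, was 0.0642 with arrayWeights, 0.63 without both arrays and -0.56 to 0.63 without 1 array. For members given only as a range, the sign is not settled: over all 10 members it turned in at least 1 alternative for 3 in Hsp72Tg, 4 in WT, 8 for the difference of the changes, 8 after MCAO and 5 after sham surgery.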
